A study of Mus musculus with 24 samples.

Results

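Oxidative phosphorylation (OXPHOS) genes were followed in the kidneys of mice after myocardial infarction (MI). The genes were chosen by symbol, except for the genes left out below. The patterns took all genes named Nduf (with a, b, c, s or v next), Uqcr, Sdha to Sdhd, and Cox4 to Cox8 with a letter a to c. They also took Atp5 and the protein-coding genes of mitochondrial DNA (mt-Nd, mt-Co, mt-Atp and mt-Cytb). The patterns matched 118 identifiers. Left out were 9 with the suffix -ps and also Cox8b and Cox7a1, which are used as brown fat markers. This left 107 of the 56941 genes in the table, 94 of nuclear DNA and 13 of mitochondrial DNA. The annotation used here (GENCODE M21, build GRCm38) lists 103 of the 107 as protein-coding and 4 (Ndufb4c, Ndufa11b, Ndufs6b and Cox6c2) as processed pseudogenes. Processed pseudogenes are copies of a parent mRNA, and reads may be split between copy and parent, so the counts of these 4 and of Ndufb4, Ndufa11, Ndufs6 and Cox6c are uncertain. Enough counts for a test were present for 103 members, 90 nuclear and 13 mitochondrially encoded, among 12780 genes tested.

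All mice were male C57BL/6J wild-type animals, aged 8 to 11 weeks at surgery. MI was induced by a lasting ligature around the left anterior descending (LAD) artery of the heart, and sham mice were operated on without tying the vessel. Kidneys were taken 5d or 28d post-MI. All sham kidneys were taken on day 5 and are the controls of both MI groups, so that at 28d the infarction and the longer interval and higher age cannot be told apart, and the comparisons with sham share their control samples. Libraries of kidney RNA were made by MACE (Massive Analysis of cDNA Ends), which primes on poly(A) tails, reads fragments from the 3′ ends of mRNA and uses unique molecular identifiers. Counts of 8 sham kidneys, 8 of 9 kidneys at 5d and 6 of 7 kidneys at 28d could be tied to their sample and were used. The libraries held between 2280618 and 3786275 counts. In bulk tissue, fewer cells of a type and less RNA per cell cannot be told apart.

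OXPHOS couples the oxidation of NADH and succinate to the synthesis of ATP in the inner mitochondrial membrane. Complex I (NADH dehydrogenase) and complex II (succinate dehydrogenase) pass electrons to ubiquinone, complex III passes them on to cytochrome c, complex IV (cytochrome c oxidase) reduces oxygen, and complex V (ATP synthase) uses the proton gradient that complexes I, III and IV build. Subunits of complexes I, III, IV and V are encoded partly in the nucleus and partly in mitochondrial DNA, whereas complex II is wholly nuclear. The kidney reabsorbs salt and solutes at a high energy cost, and its proximal tubule and thick ascending limb are rich in mitochondria.

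Mitochondrial genes are transcribed as long precursors, and a few of the mature mRNAs carry a pair of overlapping reading frames. The 3′ ends of the following 3 genes are shown because they limit how the counts of short mitochondrial genes can be read. Each is the last 60 bases of the gene on the plus strand of the mitochondrial chromosome (GRCm38), with the bases shared with a neighbouring gene in capitals. The sequences were read from the GENCODE M21 transcripts.
mt-Atp8, chrM:7910-7969: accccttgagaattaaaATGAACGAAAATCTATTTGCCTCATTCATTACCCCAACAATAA
mt-Nd4l, chrM:10114-10173: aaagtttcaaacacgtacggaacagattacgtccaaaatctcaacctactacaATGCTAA
mt-Nd5, chrM:13506-13565: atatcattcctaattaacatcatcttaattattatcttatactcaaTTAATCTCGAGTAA
The last 43 bases of mt-Atp8 are the first 43 of mt-Atp6, and the last 7 of mt-Nd4l are the first 7 of mt-Nd4, in both cases on the same strand. The last 14 bases of mt-Nd5 lie opposite the end of mt-Nd6, which is encoded on the minus strand. mt-Co1 ends 3 bases inside the tRNA gene mt-Ts1 of the minus strand. Whether counting used the strand is not given in the sources used here. Without strand, reads from a gene and its antisense partner cannot be told apart.

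All levels below are CPM (counts scaled to a common library total) after scaling of library totals by the trimmed mean of M values (TMM). They are not divided by gene length, since MACE reads the 3′ end of an mRNA and not its whole length. In sham kidneys mt-Atp6 stood at 11867 ± 484 CPM (SD, n = 8) and mt-Atp8, which shares its mRNA, at 58.5 ± 7.61 CPM. mt-Nd4 stood at 15367 ± 912 CPM and mt-Nd4l at 66.5 ± 7.44 CPM. In both pairs the reading frame nearer the 3′ end held nearly all of the counts. mt-Nd6 stood at 2345 ± 189 CPM and its antisense neighbour mt-Nd5 at 1015 ± 69.3 CPM. The tRNA gene mt-Ts1 had a mean of 3972 CPM over all kidneys, while the median of the other 21 mitochondrial tRNA genes was 35.7 CPM and the highest of them, mt-Tq, had 3755 CPM. The values of mt-Atp8, mt-Nd4l, mt-Nd5, mt-Nd6 and mt-Co1 are therefore uncertain as levels of these genes.

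The mitochondrially encoded mRNAs made up a steady share of the kidney library. Their 13 genes took 11.1% ± 0.273 of all counts in sham kidneys (SD, n = 8), 11.1% ± 0.528 at 5d (n = 8) and 10.98% ± 0.365 at 28d post-MI (n = 6). The lowest, median and highest sham kidneys were at 10.7%, 11.1% and 11.5%. At 5d these were 10.3%, 11.1% and 11.9%, and at 28d 10.6%, 10.9% and 11.6%. The 3 groups overlapped over most of their range, and the mean differed from sham by −0.029 percentage points at 5d and by −0.12 at 28d, less than the SD of the sham kidneys. The nuclear members took 3.66% ± 0.0976 of counts in sham kidneys, 3.60% ± 0.0929 at 5d and 3.49% ± 0.0921 at 28d. For this share the range was 3.49% to 3.78% in sham, 3.43% to 3.70% at 5d and 3.41% to 3.64% at 28d, so that the groups overlapped as well. Its mean differed from sham by −0.060 percentage points at 5d and by −0.17 at 28d. The difference at 28d was larger than the SD of the sham kidneys. These shares were described and not tested.

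**Figure D1:**
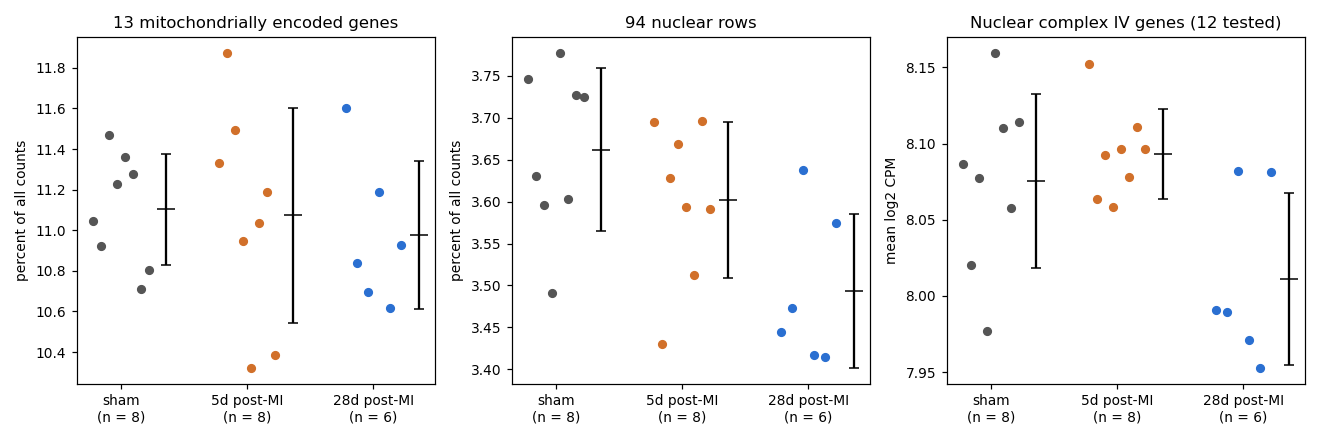
Share of all counts (percent) taken by the 13 mitochondrially encoded genes and by the 94 nuclear members, and mean log2 CPM of the 12 tested nuclear complex IV members. Each point is a kidney in order of its replicate number, the black mark and bar give the mean ± SD of the group, and the axes do not start at 0. In each plot the 3 groups overlap.

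In order of count, the mitochondrial genes were led by mt-Cytb (cytochrome b of complex III) with 23932 ± 715 CPM in sham kidneys. mt-Co3, a core subunit of complex IV, followed with 15863 ± 513 CPM. mt-Co2 stood at 12033 ± 455 CPM, and mt-Nd1 and mt-Nd2, core subunits of complex I, at 11136 ± 570 and 8269 ± 375 CPM. mt-Co2, mt-Atp6 and mt-Nd1 did not stand apart beyond their spread. mt-Co1, which carries the catalytic haem and copper centre of complex IV, had 5202 ± 405 CPM, and mt-Nd3 had 2783 ± 121 CPM. mt-Nd6, mt-Nd5, mt-Nd4l and mt-Atp8, with the levels given above, closed the order.

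Nuclear members covered a wide range of levels. The complex I members with the highest means were Ndufa4, with 1063 ± 54.7 CPM in sham, and Ndufb9, an accessory subunit, with 672.9 ± 15.1 CPM. Ndufb9 did not differ beyond its spread from the next, Ndufa13, with 670.6 ± 11.4 CPM. Ndufa4 carries a complex I name, but its protein has been assigned to complex IV. The 4 subunits of complex II lay between 265.8 and 575.5 CPM. Sdhb, the iron-sulphur subunit, had 575.5 ± 18.8 CPM. The membrane anchor Sdhc had 469.2 ± 20.1 CPM, and the flavoprotein Sdha, which oxidises succinate, had 456.2 ± 17.7 CPM. The second anchor, Sdhd, had 265.8 ± 7.88 CPM. The small complex III subunits Uqcr10 and Uqcrh had 750.5 ± 39.7 and 707.0 ± 36.4 CPM, a difference within their spread. Among the complex IV members that the symbols matched, the highest were Cox8a with 1221 ± 56.2 CPM and Cox6a1 with 1060 ± 42.6 CPM. Complex V was led by its catalytic β subunit Atp5b with 2413 ± 95.8 CPM and its α subunit Atp5a1 with 1427 ± 43.3 CPM. The 8 complex I assembly factors (Ndufaf), which help to build the complex but are not part of it, lay lower, between 18.3 and 73.7 CPM.

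**Figure D2:**
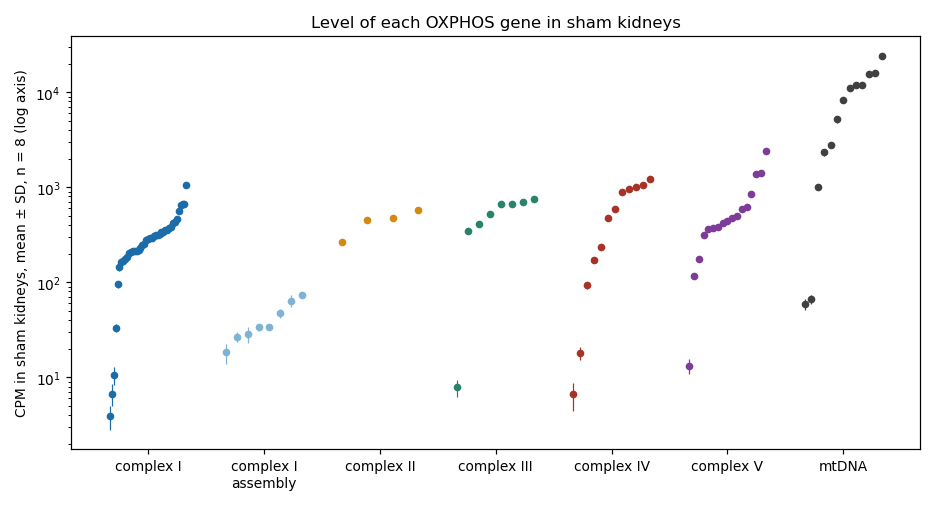
Level of each of the 103 tested members in sham kidneys, as mean CPM on a log axis with SD bars (n = 8), grouped by complex with the mitochondrially encoded genes at the right. Sham means run from 3.88 CPM for Ndufa4l2 to 23932 CPM for mt-Cytb, and in complexes I, III, IV and V a few members lie far below their partners.

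A few subunits that every complex of their kind contains had very few counts. They were picked out after their values were seen. Cox5a of complex IV had 6.60 ± 2.14 CPM in sham kidneys, against 474.4 ± 27.1 CPM for its partner Cox5b. Uqcrc2 of complex III had 7.82 ± 1.57 CPM, against 527.2 ± 31.6 CPM for Uqcrc1. Ndufb6 of complex I had 10.7 ± 2.27 CPM. All 3 stayed in this range post-MI, with group means between 6.60 and 12.3 CPM. In the annotation the 3′ end of each overlaps a gene of the opposite strand: Gm26631 for Cox5a (chr9:57531287-57532426), Pdzd9 for Uqcrc2 (chr7:120658731-120659524) and Smim27 for Ndufb6 (chr4:40270591-40270940). These neighbours had mean levels of 2.03, 0.0314 and 25.9 CPM. Whether the overlap or the annotated 3′ ends account for the low counts was not tested.

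Several subunits exist as isoforms tied to a tissue or state. The widely expressed forms dominated: Cox6a1 had 1060 CPM in sham, while Cox6a2, the heart and skeletal muscle form, had 2.60 ± 1.44 CPM and never exceeded 20 counts in a kidney. Cox6b1 had 893.1 ± 35.7 CPM, and Cox6b2, known from testis, had 18.1 ± 2.87 CPM. Cox7a2, the liver form, had 951.7 ± 31.2 CPM, and its relative Cox7a2l had 173.6 ± 8.36 CPM. Cox8a had 1221 CPM, while its testis relative Cox8c reached at most 1 count in a kidney and Cox7b2 had 0 in all 22. A count of 0 allows up to 3 counts in a kidney, or 0.792 to 1.32 CPM depending on its total, for counting error only. Ndufa4l2, a relative of Ndufa4 induced by hypoxia, had 3.88 ± 1.08 CPM in sham, 3.68 ± 1.23 CPM at 5d and 3.34 ± 0.657 CPM at 28d. The 4 members below the count filter were Cox6a2, Cox8c, Cox7b2 and a second identifier of Atp5o (ENSMUSG00000116933), which had 0 counts.

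Promoter sequence was available in RefSeq (GRCm38.p6) for 74 of the 93 nuclear symbols. The 250 bases before each start were searched on both strands for 3 motifs whose factors are known for mitochondrial genes. For NRF1 (GCGCA and GCGC with 1 base of any kind between them) a match was found in 14 of the 74 members (18.9%), against 9.36% of the 9064 tested genes and 4.23% of all 27025 genes with such a window. For the ETS family that includes GABPA (CCGGAAG) it was also found in 14 members (18.9%), against 15.5% of tested and 7.83% of all genes. For ERRα (TCAAGGTCA) it was found in 1 member, Atp5g3, against 0.276% of tested genes. Only Atp5h, Cox6a1 and Sdhd held both an NRF1 and an ETS match. In the windows printed here no match of a motif overlapped a match of another. A match describes the letters and is no evidence of binding. Of the members with an NRF1 match the 2 most abundant (Cox6a1 and Sdha) are printed, and of those with an ETS match the 3 most abundant (Cox6a1, Cox6b1 and Atp5e), to show what such windows look like, 5′ to 3′ on the strand of the gene, with matches in capitals.
Cox6a1, chr5:115348959-115349208, minus strand, NRF1 and ETS: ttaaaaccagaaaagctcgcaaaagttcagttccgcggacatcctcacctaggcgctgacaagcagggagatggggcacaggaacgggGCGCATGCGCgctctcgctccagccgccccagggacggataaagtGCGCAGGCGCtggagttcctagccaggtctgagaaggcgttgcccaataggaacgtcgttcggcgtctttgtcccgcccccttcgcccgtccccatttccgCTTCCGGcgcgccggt
Sdha, chr13:74350241-74350490, minus strand, NRF1: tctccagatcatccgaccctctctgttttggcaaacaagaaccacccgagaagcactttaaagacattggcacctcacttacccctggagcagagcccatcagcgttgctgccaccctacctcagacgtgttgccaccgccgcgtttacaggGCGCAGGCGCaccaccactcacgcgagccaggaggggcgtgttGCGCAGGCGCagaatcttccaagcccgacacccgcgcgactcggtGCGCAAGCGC
Cox6b1, chr7:30626115-30626364, minus strand, ETS: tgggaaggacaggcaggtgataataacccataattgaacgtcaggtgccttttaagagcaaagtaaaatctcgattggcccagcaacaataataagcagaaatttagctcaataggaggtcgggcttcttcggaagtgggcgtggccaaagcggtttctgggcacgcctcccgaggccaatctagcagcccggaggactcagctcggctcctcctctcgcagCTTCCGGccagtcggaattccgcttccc
Atp5e, chr2:174464102-174464351, minus strand, ETS: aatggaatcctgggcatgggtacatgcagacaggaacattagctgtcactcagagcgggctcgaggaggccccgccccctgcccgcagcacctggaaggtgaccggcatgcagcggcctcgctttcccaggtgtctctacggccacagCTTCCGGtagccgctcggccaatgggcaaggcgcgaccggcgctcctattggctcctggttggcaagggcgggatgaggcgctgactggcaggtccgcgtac
Sdha held 3 NRF1 matches and Cox6a1 held 2. Sdha encodes the catalytic subunit of complex II, and Cox6a1 the widely expressed form of its pair in complex IV.

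Kidneys varied little in these genes. For the 90 tested nuclear members the median coefficient of variation between kidneys was 4.70% in sham, 6.04% at 5d and 6.64% at 28d, while counting error alone would give a median of 3.20% to 3.44%. Over all 12780 genes tested the median was 14.3% in sham, with a counting error of 12.4%. For the mitochondrially encoded genes it was 5.12% in sham, 5.86% at 5d and 3.65% at 28d, against a counting error of 0.627% to 0.67%. OXPHOS genes thus showed spread beyond counting error in each group, but it was a few percent in size.

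Part of this spread was shared among nuclear members. Of the 72 nuclear members above 100 CPM on average, the number above their own mean over the 22 kidneys ranged from 19 to 61 in sham kidneys, with a median of 41. At 5d it ranged from 3 to 64 with a median of 40.5, and at 28d from 7 to 66 with a median of 23.5. The kidney with 3 of 72 was replicate 2 at 5d, and the kidney with 66 was replicate 3 at 28d. These kidneys also had the highest and the lowest TMM factor of all 22 (1.03 and 0.956). A higher factor lowers every CPM of a kidney. Their mean log2 CPM of complex I was 7.65 and 7.84, against 7.71 to 7.80 in sham. With raw library totals it was 7.69 and 7.77, against 7.69 to 7.80 in sham. Replicate 2 at 5d also had the lowest summed level of 12 proximal tubule markers (37408 CPM, against 52766 to 74521 CPM in the other kidneys) and the highest sum of 8 thick limb and distal tubule markers (4029 CPM), and mitochondrially encoded genes took 11.9% of its counts, the highest share of all. The part of the scaling and of these marker and share differences in the OXPHOS values was not tested.

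**Figure D3:**
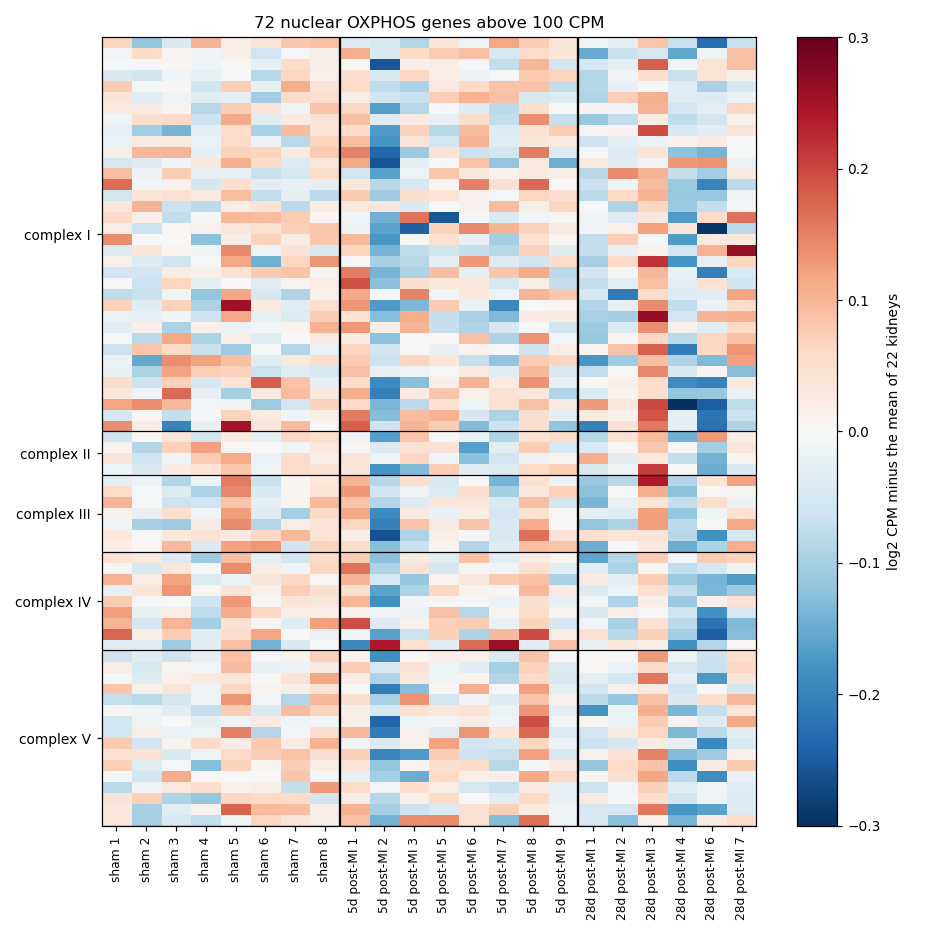
Deviation of log2 CPM from the mean of the 22 kidneys for the 72 nuclear members above 100 CPM, as a colour scale from −0.3 (blue) to 0.3 (red). Rows are genes by complex and columns are kidneys by group. Replicate 2 at 5d is lower in most rows (3 of 72 above the mean) and replicate 3 at 28d higher (66 of 72). They had the highest and the lowest TMM factor of all kidneys (1.03 and 0.956).

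The question of the first comparison was whether kidney OXPHOS transcripts differed 5d post-MI. No member passed the test (edgeR quasi-likelihood test, Benjamini-Hochberg adjustment over 12780 genes, adjusted p under 0.05), against 0.0704% of all genes tested. At an unadjusted p under 0.05, 1 member was higher and 0 were lower, against 3.93% and 3.96% of all genes (7.89% in either direction). The median log2 fold change was −0.0085 for the 103 members, −0.013 for the 90 nuclear and 0.01 for the 13 mitochondrially encoded members, beside 0.00034 for all genes tested. Fold changes ran from −0.11 to 0.21 on the log2 scale. For 86 of the 103 members the 95% interval lay within ±0.2 on the log2 scale, a change of at most 14.9% up or 12.9% down. Such an interval was reached by 19.3% of all genes tested. Genes with more counts have narrower intervals, and the median SE was 0.047 for members and 0.11 for all genes tested. The 2 shares are thus not matched for level. With DESeq2 no member passed either, and 0 had an unadjusted p under 0.05.

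The member with the lowest p at 5d was Cox7a2l. Its level in sham kidneys was 161.4, 173.8 and 189.7 CPM at the lowest, median and highest. At 5d these were 155.9, 186.7 and 213.3 CPM. The 5d group spread beyond the sham group on both sides, and 3 of 8 kidneys lay above every sham kidney. Its log2 fold change was 0.11 ± 0.055 (SE), with an adjusted p of 0.627 by edgeR. Ndufb11, an accessory complex I subunit encoded on the X chromosome, had 230.3, 240.3 and 271.3 CPM in sham and 247.6, 260.3 and 277.5 CPM at 5d. All 8 kidneys at 5d were above the sham mean, and the groups overlapped. Its log2 fold change of 0.09 ± 0.047 had an adjusted p of 0.652. mt-Atp8 came next, with a log2 fold change of 0.12 ± 0.076 (adjusted p = 0.761) and the counting limit given above.

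The lowest p values among members with lower means belonged to Ndufc1, Atp5k and Ndufab1. Ndufc1, an accessory complex I subunit, went from 357.6 ± 10.8 CPM in sham to 340.6 ± 30.8 CPM at 5d. Atp5k, which helps ATP synthase to form dimers, went from 418.0 ± 12.4 to 398.5 ± 32.1 CPM. Ndufab1, the mitochondrial acyl carrier protein, went from 228.0 ± 17.2 to 216.4 ± 17.7 CPM. For Ndufc1 and Atp5k, 5 of 8 kidneys at 5d lay below every sham kidney while 2 and 1 lay above every sham kidney, and their SD was larger at 5d than in sham. Their log2 fold changes were −0.07, −0.069 and −0.076, with adjusted p of 0.776, 0.781 and 0.789. All 4 complex II genes had log2 fold changes between −0.041 and −0.018, each with a 95% interval within ±0.2. The 8 complex I assembly factors had a median of 0.056 and intervals that were wider, with 2 of 8 within ±0.2.

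At 28d post-MI, the question was whether OXPHOS transcripts differed after the acute phase. Again no member passed the adjusted threshold, against 0.0235% of all genes tested. At an unadjusted p under 0.05, 3 members were higher and 5 lower, against 4.47% and 4.23% of all genes tested (8.69% in either direction). The 3 higher were all mitochondrially encoded and the 5 lower all nuclear. The median log2 fold change was −0.024 for the nuclear members, of which 63 of 90 were below 0, and 0.032 for the mitochondrially encoded members, of which 10 of 13 were above 0. All genes tested had a median of −0.00099, with 50.4% below 0. The summed share of raw counts of the mitochondrially encoded genes, a different measure, was lower by 0.12 percentage points in the mean. With raw totals in place of TMM, the mean log2 CPM of every nuclear complex was lower at 28d against sham. For complex I the difference moved from −0.016 to −0.054 and for complex IV from −0.064 to −0.10. Fits of single genes with raw totals were not run, so the signs and medians above hold for TMM scaling only. For 80 of 103 members the 95% interval lay within ±0.2, beside 13.6% of all genes, again not matched for level.

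The lower nuclear members at an unadjusted p under 0.05 were mostly complex IV genes, 4 of 12 tested. Cox6b2 stood out in size. Its sham kidneys had 15.0, 17.1 and 24.1 CPM at the lowest, median and highest, and its kidneys at 28d 11.5, 13.1 and 17.8 CPM. Here 5 of 6 kidneys at 28d lay below every sham kidney, while replicate 3 lay within the sham range. The log2 fold change was −0.41 ± 0.14 (SE), with a 95% interval from −0.70 to −0.12 and an adjusted p of 0.37 by edgeR. Its relative Cox6b1, at a much higher level, had a log2 fold change of −0.049 ± 0.044. Cox7c, a small nuclear subunit, had 220.1, 231.7 and 254.9 CPM in sham and 190.1, 211.5 and 237.3 CPM at 28d. Cox5b, which binds zinc, had 434.0, 474.7 and 507.5 CPM in sham and 399.6, 438.5 and 480.3 CPM at 28d. Cox7a2 had 909.8, 948.9 and 1013 CPM in sham and 841.3, 890.1 and 957.8 CPM at 28d. For these 3 genes 5 of 6 kidneys at 28d lay below the sham mean, and the groups overlapped. Their log2 fold changes were −0.12 ± 0.056, −0.11 ± 0.05 and −0.093 ± 0.044, with adjusted p of 0.542, 0.544 and 0.547. Of the 12 tested complex IV members 10 had a log2 fold change below 0, with a median of −0.077. Cox4i1, a core nuclear subunit that the symbol pattern does not match, had 1107 ± 35.3 CPM in sham and 1110 ± 59.5 CPM at 28d (log2 fold change 0.0043, adjusted p = 0.991).

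Outside complex IV the lower member was Atp5mpl, a small subunit of ATP synthase. It had 413.9, 443.6 and 463.5 CPM in sham and 376.7, 417.5 and 438.3 CPM at 28d. All 6 kidneys at 28d were below the sham mean and 2 below every sham kidney. Its log2 change was −0.099 ± 0.044 (adjusted p = 0.53). The leading complex V genes did not follow it, with log2 fold changes of 0.02 ± 0.041 for Atp5b and −0.0085 ± 0.04 for Atp5a1. For complex II the values were −0.043 ± 0.045 for Sdha, 0.0069 ± 0.047 for Sdhb, −0.022 ± 0.045 for Sdhc and −0.024 ± 0.052 for Sdhd. For complex III they were 0.027 ± 0.052 for Uqcr10 and −0.027 ± 0.047 for Uqcrh.

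Among mitochondrially encoded genes mt-Nd4l had the lowest p at 28d. It had 55.1, 66.5 and 80.9 CPM at the lowest, median and highest in sham and 63.9, 77.7 and 83.6 CPM at 28d. The groups overlapped, with 5 of 6 kidneys at 28d above the sham mean and 1 above every sham kidney. The log2 fold change was 0.20 ± 0.074 (SE), with an interval from 0.047 to 0.35 and an adjusted p of 0.407 by edgeR. mt-Nd4, which shares the mRNA, had 0.032 ± 0.039. mt-Co1 had 4805, 5172 and 6104 CPM in sham and 5244, 5507 and 6356 CPM at 28d. All 6 kidneys at 28d lay above the sham mean and 1 above every sham kidney. Its log2 fold change was 0.12 ± 0.059 (adjusted p = 0.564). mt-Nd5 had 912.1, 1012 and 1109 CPM in sham and 1013, 1090 and 1113 CPM at 28d, with 5 of 6 kidneys above the sham mean. Its log2 fold change was 0.09 ± 0.044 (adjusted p = 0.574). The counting limits given above apply to mt-Nd4l, mt-Co1 and mt-Nd5. mt-Cytb and mt-Nd2 had 0.0057 ± 0.032 and 0.0054 ± 0.038, mt-Co3 0.052 ± 0.035 and mt-Co2 0.064 ± 0.036. The remaining 5 were 0.082 for mt-Atp8, 0.018 for mt-Nd6, −0.023 for mt-Nd1, −0.025 for mt-Nd3 and −0.033 for mt-Atp6. None of these 9 had an unadjusted p under 0.05.

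**Figure D4:**
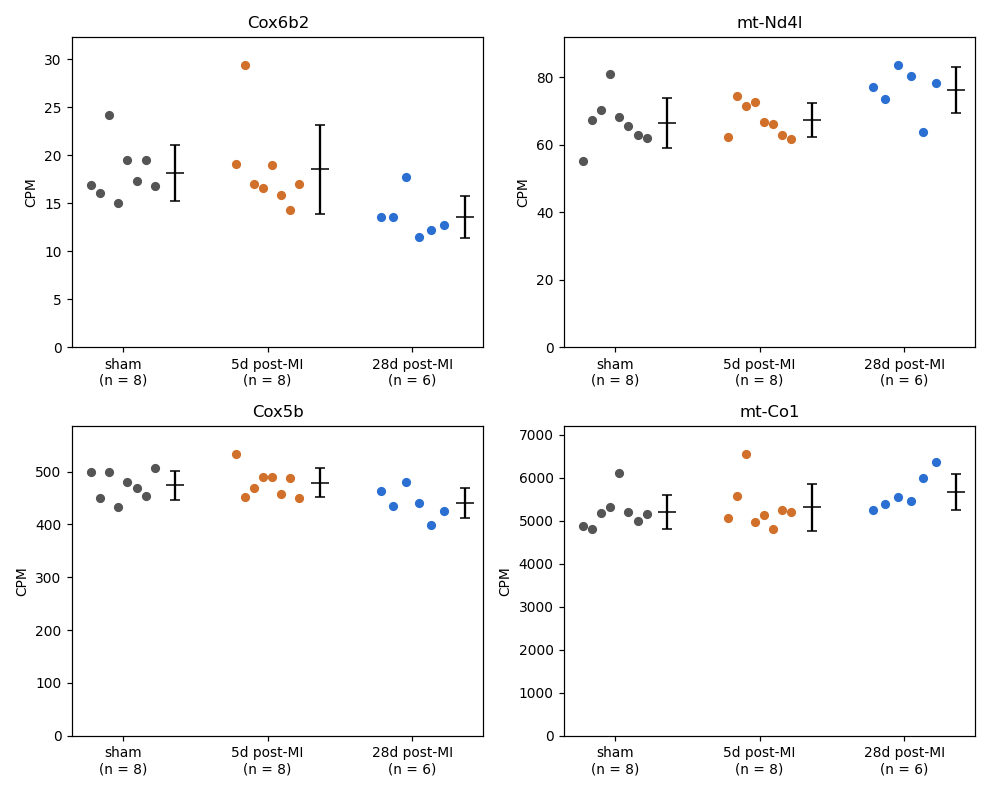
CPM of Cox6b2, mt-Nd4l, Cox5b and mt-Co1 in each kidney, with the group mean ± SD in black and axes that start at 0. Of the 6 kidneys at 28d, 5 lie below every sham kidney for Cox6b2, while for the other 3 genes the groups overlap.

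The balance of mt-Co1 and mt-Nd1 counts varied between kidneys, a pattern picked out after the values were known. It carries the counting limit of mt-Co1 given above. The ratio of mt-Co1 to mt-Nd1 counts ranged from 0.437 to 0.534 in sham (median 0.459), from 0.414 to 0.612 at 5d (median 0.474) and from 0.418 to 0.659 at 28d (median 0.496). The highest values belonged to replicates 7 and 6 at 28d (0.659 and 0.61), replicate 3 at 5d (0.612) and replicate 5 of sham (0.534). High kidneys were thus found in each group. In replicates 7 and 6 at 28d mt-Nd1 had its lowest levels of all kidneys, 9643 and 9826 CPM.

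The direct comparison of 28d with 5d also called no member, against 0.415% of all genes tested. Sham levels do not enter this difference, but the sham kidneys were part of the fit that set its spread. With these 2 groups alone the lowest adjusted p of a member was 0.281, and 26 genes in place of 53 were called over all genes. At an unadjusted p under 0.05, 2 members were higher and 3 lower at 28d, against 5.04% and 4.01% of all genes tested (9.05% in either direction). Cox6b2 again had the lowest p. Its kidneys at 5d had 14.3, 17.0 and 29.3 CPM at the lowest, median and highest, and 5 of 6 kidneys at 28d lay below all of them. The log2 fold change of 28d against 5d was −0.46 ± 0.14 (SE), with an adjusted p of 0.202 by edgeR. The highest value belonged to replicate 2 at 5d, the kidney with the lowest proximal tubule marker sum. Without that kidney the log2 fold change was −0.33.

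Cox5b had 450.0, 478.7 and 533.5 CPM at 5d, with 4 of 6 kidneys at 28d below all of them. Its log2 fold change was −0.12 ± 0.05 (adjusted p = 0.432). Ndufb9 had 648.5, 699.3 and 724.8 CPM at 5d and 602.4, 644.7 and 713.4 CPM at 28d, a log2 fold change of −0.099 ± 0.043 (adjusted p = 0.477). mt-Nd4l and mt-Nd5 were the 2 higher members, with log2 fold changes of 0.18 ± 0.074 and 0.092 ± 0.044 and adjusted p of 0.444 and 0.534. For mt-Co2, the next in this direction, it was 0.067 ± 0.036 (adjusted p = 0.607). In none of the 3 comparisons did the groups fail to overlap for any of the 103 members. Over all genes tested this happened for 0.0548% at 5d against sham, 0.258% at 28d against sham and 0.344% at 28d against 5d.

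**Figure D5:**
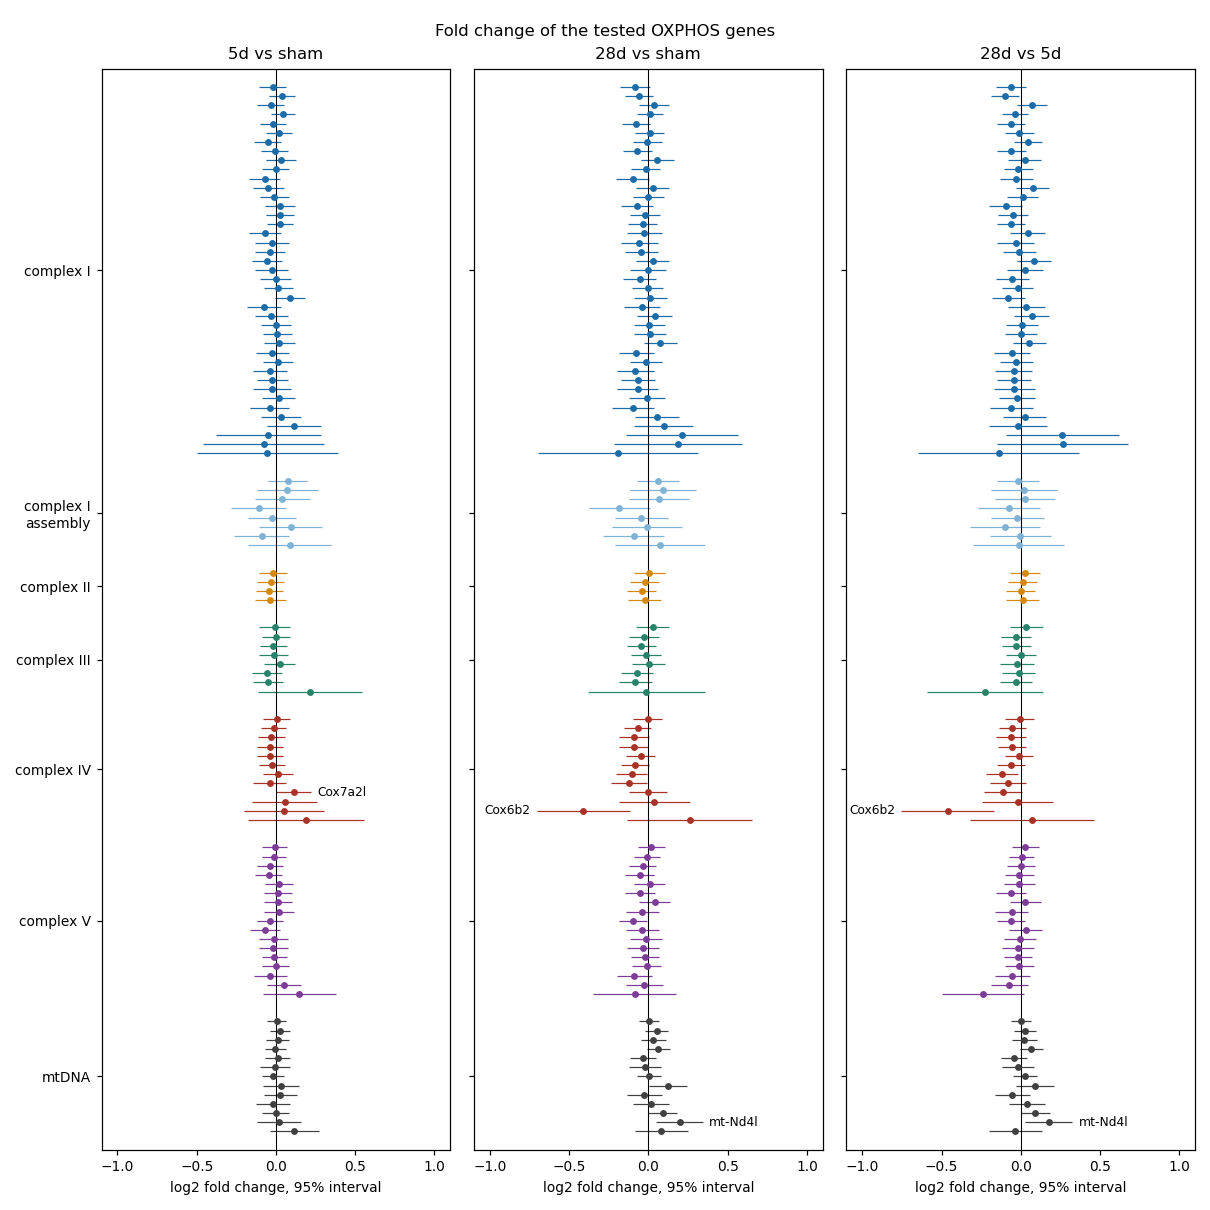
log2 fold change with its 95% interval for each of the 103 tested members in the 3 comparisons, ordered by complex and, within a complex, from the highest sham level at the top to the lowest. Most intervals cross 0, and the wide ones belong to members with few counts; 86, 80 and 84 of 103 intervals lie within ±0.2.

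By complex, the mean log2 CPM of the nuclear members moved by less than 0.1 in each comparison with TMM scaling. Complex I had 7.74 ± 0.026 in sham, 7.73 ± 0.040 at 5d and 7.73 ± 0.074 at 28d (SD over kidneys). Complex II had 8.73 ± 0.036, 8.70 ± 0.056 and 8.71 ± 0.061, and complex III 8.37 ± 0.057, 8.39 ± 0.084 and 8.34 ± 0.099. Complex V had 8.69 ± 0.041, 8.69 ± 0.061 and 8.66 ± 0.054. Each of these differences was smaller than the SD of the kidneys at 28d. Complex IV had 8.08 ± 0.057 in sham, 8.09 ± 0.03 at 5d and 8.01 ± 0.056 at 28d. Its kidneys at 28d ranged from 7.95 to 8.08 and those at 5d from 8.06 to 8.15, so that the groups overlapped. With raw library totals in place of TMM scaling the ranges were 7.94 to 8.06 at 28d, 8.07 to 8.14 at 5d and 7.96 to 8.16 in sham, so that 28d lay below 5d without overlap while both overlapped sham. In these means every member weighs the same, whatever its level. Cox6b2, with few counts and a log2 fold change of −0.41 at 28d against sham, thus weighs as much as Cox8a. Over the 12 tested complex IV members the median log2 fold change at 28d against sham was −0.077, with 10 below 0. The means by complex were described and not tested.

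Gene lists around OXPHOS were set beside the members. Among them were 36 tested assembly factors outside the Ndufaf family, 12 genes of mitochondrial DNA expression and 16 tricarboxylic acid cycle and pyruvate dehydrogenase genes. Others were 8 ADP/ATP, phosphate, pyruvate and porin carriers and 75 mitochondrial ribosomal proteins. None of these genes passed the test in any of the 3 comparisons. For the tricarboxylic acid cycle the median log2 fold change was −0.071 at 5d and −0.055 at 28d against sham, with 2 of 16 genes lower and 0 higher at an unadjusted p under 0.05 in each, beside 3.96% and 4.23% of all genes lower. Between 28d and 5d its median was 0.0042, with 1 gene higher and 0 lower. For the ribosomal proteins, which translate the mitochondrially encoded mRNAs, the medians were 0.008 and 0.0049. A further list holds subunits and carriers, with 5 tested genes of which Atp5mpl is also a member. In it, Cycs, the electron carrier cytochrome c, had 303.3 ± 23.4 CPM in sham and 273.6 ± 42.0 CPM at 5d (log2 fold change −0.15 ± 0.08, adjusted p = 0.669). Cyc1, the cytochrome c1 of complex III, had 465.1 ± 21.1 and 477.8 ± 28.6 CPM.

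Markers of cell types were read in the same libraries. None of the proximal tubule, thick limb, collecting duct and podocyte markers was at 0 in all kidneys. The same held for the adipocyte, striated muscle and red blood cell markers, so this does not check the labelled tissue. The summed proximal tubule markers were at 52766 to 64128 CPM in sham, 37408 to 69906 CPM at 5d and 65938 to 74521 CPM at 28d. The 28d group lay above every sham kidney. Most of this sum was Kap, an abundant androgen-regulated gene of the proximal tubule, with 42410 to 51332 CPM in sham and 53327 to 61331 CPM at 28d. Without Kap the sums overlapped, at 10097 to 12796 CPM in sham and 11370 to 13189 CPM at 28d. Of 11 tested proximal tubule markers, 4 were higher and 1 lower at 28d than in sham at an unadjusted p under 0.05. All genes tested had 4.47% and 4.23%. Against 5d, 7 were higher and 1 lower, beside 5.04% and 4.01% of all genes. No proximal tubule marker passed the adjusted threshold. Brown adipocyte markers summed to 92.5 to 488.1 CPM in sham, 70.1 to 371.4 CPM at 5d and 88.3 to 167.1 CPM at 28d. Of the genes set aside for this reason, Cox8b had 57.1 ± 33.4 CPM in sham and 15.8 ± 9.26 CPM at 28d, and Cox7a1 71.5 ± 12.6 and 56.9 ± 3.07 CPM. Their log2 fold changes at 28d against sham were −1.86 ± 0.60 (SE) and −0.33 ± 0.095. The adjusted p values by edgeR were 0.361 and 0.258, both below the lowest of a member (0.37). White adipocyte markers summed to 386.7 to 1960 CPM in sham, 193.9 to 1430 CPM at 5d and 380.2 to 980.4 CPM at 28d. Red blood cell genes summed to 2214 to 4134 CPM in sham, 4972 to 19021 CPM at 5d and 1813 to 5128 CPM at 28d. Of 6 tested, 4 were called higher at 5d than in sham, beside 0.0704% of all genes called, and 4 were called lower at 28d than at 5d, beside 0.415%. Striated muscle markers stayed between 5.45 and 15.8 CPM. Adrenal cortex markers reached 1040 and 821.2 CPM in replicates 2 and 6 of sham, against 5.89 to 8.49 CPM in the other sham kidneys. Without these 2 sham kidneys no member was called in any comparison. The part of the marker genes in the OXPHOS values was otherwise not tested.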

How the data were processed

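Kidney RNA of 24 mice was sequenced by MACE. The authors trimmed reads with Cutadapt, mapped them and counted reads per gene with HTSeq, and deposited 1 table of raw counts and TPM values. The study's methods name build mm10 and its labels mm39. The annotation and the strand setting of counting are not given in the sources used here, so coordinates came from GENCODE M21 (GRCm38). Of the deposited count columns 22 were used. 2 were left out because they share a name, and the 24 TPM columns were not used. Over 71 pairs of kidneys within groups, counts differed by 1.77 to 8.10 times the sampling variance, so within a group no library was a plain repeat of another. Pairs from different groups were not compared, and a second library of the same kidney was not excluded. Nothing states that kidneys were pooled.

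Genes were kept by filterByExpr (minimum count 10), leaving 12780. Counts were scaled by TMM and fitted with the robust quasi-likelihood test of edgeR 4.0.16 (R 4.3.3), with all 3 groups in 1 fit and Benjamini-Hochberg adjustment over all genes tested. The study used DESeq2, which was run as an alternative (version 1.42.0). Fitted on simulated counts for 5d against sham, edgeR recovered 181 of 200 genes changed by 1 on the log2 scale, with 8 false calls among 12636 genes. Named were all mitochondrially encoded members, complex II, the 2 most abundant nuclear members of each complex, the 3 members with the lowest p in each direction of each comparison, tissue-bound isoforms and members below the filter. The members and lists were chosen with earlier results of these data known. Mean log2 CPM used a pseudocount of 0.5. Intervals are at the 95% level, and floors cover counting error only. Other settings tried were RLE scaling, no filter, library totals without mitochondrial genes, raw totals, the compared groups alone, a replicate block and leaving out kidneys.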

Additional observations from a re-analysis of the deposited data

Results flagged for a closer look

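In 123 groups of values (named members, shares and ratios per group), the highest or lowest kidney was checked for a gap to its nearest neighbour above Dixon's 95% critical value. It was exceeded 9 times, where chance alone gives about 1 in 20 groups.

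Cox6b2 was exceeded in both MI groups. Replicate 2 at 5d had 29.3 CPM, with the next kidney at 19.1 CPM, and replicate 3 at 28d had 17.8 CPM, with the next at 13.6 CPM. The same replicate 2 at 5d had the lowest Cox6b1 level, 771.1 CPM against 862.9 CPM in the next kidney.

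Replicate 5 of sham was the highest of its group in 4 measures. It had 6104 CPM of mt-Co1 (next 5321 CPM), a ratio of mt-Co1 to mt-Nd1 counts of 0.534 (next 0.48), 836.4 CPM of Uqcr10 (next 767.8 CPM) and 264.3 CPM of Ndufab1 (next 232.6 CPM). Replicate 3 at 5d had 6552 CPM of mt-Co1, with the next kidney at 5570 CPM. Replicate 6 of sham had 6.40 CPM of Ndufa4l2, with the next at 4.22 CPM.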

How the results depend on the processing

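No member was called in any of the 3 comparisons under any alternative run. The lowest adjusted p of a member ranged from 0.309 to 0.859 at 5d against sham, from 0.225 to 0.561 at 28d against sham and from 0.0889 to 0.434 at 28d against 5d. The value of 0.0889 belonged to Cox6b2 without a filter on low counts. With DESeq2, 13 of 103 members had no adjusted p at 28d against sham and could not be called. Over all genes, edgeR called 9, 3 and 53 genes in these comparisons, DESeq2 35, 30 and 93, and edgeR without the filter 80, 94 and 160. Leaving out 1 kidney moved the edgeR counts to between 1 (without replicate 3 at 28d, among others) and 38 (without replicate 1 at 5d), between 0 (without replicate 2 or 7 at 28d) and 29 (without replicate 8 of sham), and between 41 and 84. Cox6b2 had an unadjusted p under 0.05 in 30 of 30 fits for 28d against sham, with a log2 fold change between −0.50 and −0.35, and in 30 of 30 against 5d, between −0.55 and −0.33. mt-Nd4l did so in 30 of 30 and 28 of 30. Members called stayed at 0 when each kidney was left out in turn. The difference in mitochondrially encoded share then ranged from −0.144 to 0.0779 points at 5d, from −0.249 to −0.0521 at 28d and from −0.220 to 0.0192 between 28d and 5d.

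With raw library totals in place of TMM, the mean log2 CPM of complex I differed by −0.054 between 28d and sham (−0.016 with TMM) and by −0.033 between 28d and 5d (−0.0052), and that of complex II by −0.061 between 28d and sham (−0.022). Between 28d and sham, complexes III, IV and V differed by −0.070, −0.10 and −0.070 (−0.031, −0.064 and −0.031 with TMM) and the complex I assembly factors by −0.037 (0.0011). Between 28d and 5d, complex II changed sign, from 0.011 to −0.017. Leaving out the 2 sham kidneys with adrenal genes was decided on after the data had been seen. The lowest adjusted p of a member was then 0.859, 0.527 and 0.236.

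Kidneys with the same replicate number did not deviate together (18 pairs, r from −0.125 to 0.09). With the replicate number as a block, 0 members were called, and the lowest adjusted p was 0.657, 0.256 and 0.198. Depth limits the rare members most: of those tested with a sham mean under 20 CPM, none had a 95% interval within ±0.2.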
